A study of Xenopus tropicalis with 4 samples.

Results

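Transcripts of 6 genes of the Spemann organizer were followed in ectodermal explants of *Xenopus tropicalis* gastrulae: the transcription factor genes lhx1 and gsc, the secreted antagonist genes chrd.1, nog and fst, and the ligand gene admp. They were taken by gene symbol, and all 6 were found among the 28850 genes listed in each library. The explants were animal caps, the roof of the embryo that gives rise to epidermis and nervous system, cut at Nieuwkoop-Faber stage 10.5, the early gastrula. There were 2 groups of 2 libraries, both from embryos recorded as wild type and kept at 25 °C. Foxh1 MO embryos had been injected at the 1-cell stage with 22.5 ng of an antisense morpholino oligonucleotide (MO) against foxh1, and control MO embryos with 22.5 ng of a standard control MO. An MO injected at that stage reaches the whole embryo, so the explants and the tissues they had touched were both exposed. The labels state neither the sequence of either MO nor how many embryos or clutches a library holds, so a p-value here measures the spread between these libraries, which may be technical.

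The organizer is the dorsal lip of the gastrula, a signalling centre that patterns the neighbouring mesoderm and lets the ectoderm above it become neural. It works in large part by secreting proteins that bind bone morphogenetic proteins (BMPs) outside the cell and keep them from their receptors. Foxh1 is a forkhead transcription factor that recruits the Nodal transducers Smad2 and Smad3 to DNA, and organizer genes such as gsc and lhx1 are known targets of that pathway in the mesendoderm. Animal cap ectoderm lies outside the organizer. The transcripts described here were at a low level in the explants, so raw read counts are given beside the scaled values. Which cells of the explants made them was not tested. Because each library is a bulk sample, fewer expressing cells and less RNA per cell cannot be told apart.

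Each library held between 25632619 and 29800530 expected counts, the estimate of reads per gene made by the program RSEM. CPM values below are read counts per unit of library size, scaled between libraries by the TMM method. TPM values are the deposited measure of transcript abundance, which accounts for transcript length and sums to the same total in each library. The foxh1 transcript itself stood at 264 and 174 CPM in Foxh1 MO libraries, against 79.3 and 71.2 CPM in control MO libraries. Since an MO acts on translation or splicing, this level does not measure how far the protein was reduced. Ectoderm identity was clear in both groups: 11 ectoderm markers summed to 3610 and 3960 TPM in Foxh1 MO libraries, against 3760 and 3580 TPM in control MO libraries. The most abundant of them were the adhesion gene epcam, sox3, the keratin gene krt70 and tfap2a. Epcam alone gave 1540 and 1670 TPM in Foxh1 MO libraries and 1700 and 1530 TPM in control MO libraries. The test described next called 4.17% of all tested genes higher and 4.07% lower. By it 5 markers rose in Foxh1 MO libraries: tfap2a, grhl1, krt70, foxi1 and dlx3. The 4 that fell were sox2, sox3, zic2 and krt12.4. The similar sums thus hold shifts in both directions among the 11 markers. Without control MO 1, 2 of them were called higher, and without control MO 2 or Foxh1 MO 2, 1 and 2 were called lower.

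Of the 6 organizer genes, lhx1, chrd.1, fst and admp had enough counts to be tested, and all 4 were lower in Foxh1 MO libraries. Over all 13756 genes tested, 4.07% were called lower by edgeR's quasi-likelihood test at a Benjamini-Hochberg adjusted p under 0.05, and 6.16% of the 4397 with a mean under 5 CPM. Both Foxh1 MO libraries lay below both control MO libraries for each of the 6 genes, as they did for 24.3% of tested genes. The 6 genes were picked with earlier results of these libraries known, so their count is a description and not evidence about organizer genes as a class. In Foxh1 MO libraries chrd.1 and admp had fewer than 10 counts each and passed the filter on low counts through the control MO libraries. The other 2 genes, gsc and nog, fell below the filter and are given as counts.

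Lhx1 encodes a LIM homeodomain protein that is needed for head formation and that activates gsc and chordin in the organizer. It was the most abundant of the 6 in both groups. Foxh1 MO libraries held 38 and 33 lhx1 counts, against 126 and 135 in control MO libraries. Scaled, this was 1.39 and 1.24 CPM in Foxh1 MO libraries and 4.02 and 4.75 CPM in control MO libraries. The replicates lay close together and the groups were far from overlapping. Expression was 3.32 times lower in Foxh1 MO libraries (log2 fold change -1.73, SE 0.26, edgeR adjusted p = 0.00178).

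Goosecoid, encoded by gsc, is a homeodomain repressor and the classic marker of the dorsal lip. Foxh1 MO libraries held 1 and 0 gsc counts, against 16 and 8 in control MO libraries. The 0 allows up to 0.139 CPM in that library (3.69 counts, the upper bound of the exact Poisson 95% interval). The control MO libraries stood at 0.510 CPM (exact Poisson 95% interval 0.291 to 0.828) and 0.281 CPM (0.121 to 0.555). Both control MO libraries therefore lay above both Foxh1 MO libraries, although the exact Poisson intervals of both Foxh1 MO libraries, with upper bounds of 0.203 CPM for the 1 count and 0.139 CPM for the 0, reach past the lower bound of control MO 2. Summed per group and scaled, 1 count against 24 gave a level 21.6 times lower in Foxh1 MO libraries, with an exact 95% interval of 3.53 to 890. These intervals cover counting error and not the spread between replicates. With the filter removed, gsc passed the edgeR test (log2 fold change -4.14, adjusted p = 0.010, where 4.2% of 20537 genes were called lower). In separate fits with the filter kept and a single library left out, the outcome depended on the library. Without Foxh1 MO 2, the library at 0, gsc did not pass (log2 fold change -3.31). It passed without Foxh1 MO 1 (-6.53) and without control MO 2 (-4.49), and was not tested without control MO 1. Each of these fits leaves 1 library in a group.

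**Figure D1:**
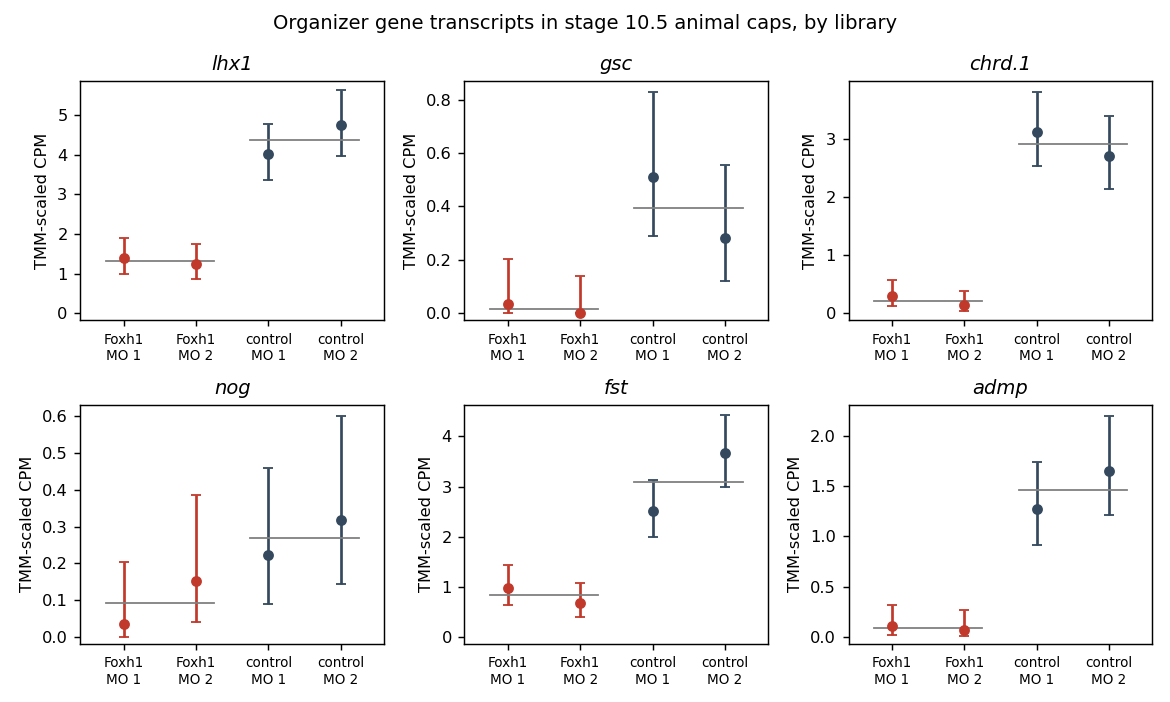
TMM-scaled CPM of each organizer gene (vertical axis) in the 2 Foxh1 MO and 2 control MO libraries (horizontal axis); points are libraries, bars exact Poisson 95% intervals of the count, and grey lines group means. Foxh1 MO points lie below both control MO points for each of the 6 genes, from 1.39 and 1.24 against 4.02 and 4.75 CPM for lhx1 to 0.0365 and 0 against 0.510 and 0.281 CPM for gsc. Intervals of nog and gsc overlap between groups, those of gsc with control MO 2 only.

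Chordin, the product of chrd.1, is a large secreted protein that holds BMPs in an inactive complex until a tolloid protease cuts it. Counts of chrd.1 were 8 and 4 in Foxh1 MO libraries, against 98 and 77 in control MO libraries. That corresponds to 0.292 and 0.151 CPM in Foxh1 MO libraries and 3.12 and 2.71 CPM in control MO libraries. The transcript was thus nearly lost, at a level 12.9 times lower (log2 fold change -3.69, SE 0.40, edgeR adjusted p = 0.000232). Among all tested genes, chrd.1 had the 15th lowest log2 fold change. RSEM's abundance-weighted length of the gene was 3918 bases in both Foxh1 MO libraries and 4098 and 4105 bases in control MO libraries, but with 8 and 4 counts a shift between its 3 annotated transcripts could not be assessed.

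Noggin, encoded by nog, blocks BMPs by binding them directly and is a strong neural inducer in animal caps. Its counts were 1 and 4 in Foxh1 MO libraries, against 7 and 9 in control MO libraries. In CPM these were 0.0365 and 0.151 in Foxh1 MO libraries and 0.223 and 0.317 in control MO libraries. The points did not overlap, but the Poisson interval of Foxh1 MO 2 (0.0411 to 0.386 CPM) contains both control MO values. Summed per group, 5 counts against 16 gave a level 2.88 times lower in Foxh1 MO libraries, with an exact 95% interval of 1.01 to 10.1. With the filter removed nog did not pass the edgeR test (adjusted p = 0.467, unadjusted p = 0.118). The exact interval lies just above 1 but covers counting error only, so a difference in nog was not established.

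Follistatin, encoded by fst, binds activins and, more weakly, BMPs. Fst had 27 and 18 counts in Foxh1 MO libraries, against 79 and 104 in control MO libraries. Its level was 0.986 and 0.679 CPM in Foxh1 MO libraries and 2.52 and 3.66 CPM in control MO libraries. Replicates of fst varied more than those of lhx1, yet the lowest control MO library was well above the highest Foxh1 MO library. Expression was 3.68 times lower in Foxh1 MO libraries (log2 fold change -1.88, SE 0.33, edgeR adjusted p = 0.00471).

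Admp encodes a BMP-class ligand that, unlike most other BMPs, is made on the dorsal side and restrains the organizer from within. Counts were 3 and 2 in Foxh1 MO libraries, against 40 and 47 in control MO libraries. The corresponding levels were 0.110 and 0.0754 CPM in Foxh1 MO libraries and 1.27 and 1.65 CPM in control MO libraries. Of the 4 tested genes admp had the lowest log2 fold change, -3.92 (SE 0.53, edgeR adjusted p = 0.000876), a level 15.1 times lower in Foxh1 MO libraries. It had the 11th lowest log2 fold change of all tested genes. Its SE and that of chrd.1 leave these 2 genes indistinguishable in the size of their change.

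**Figure D2:**
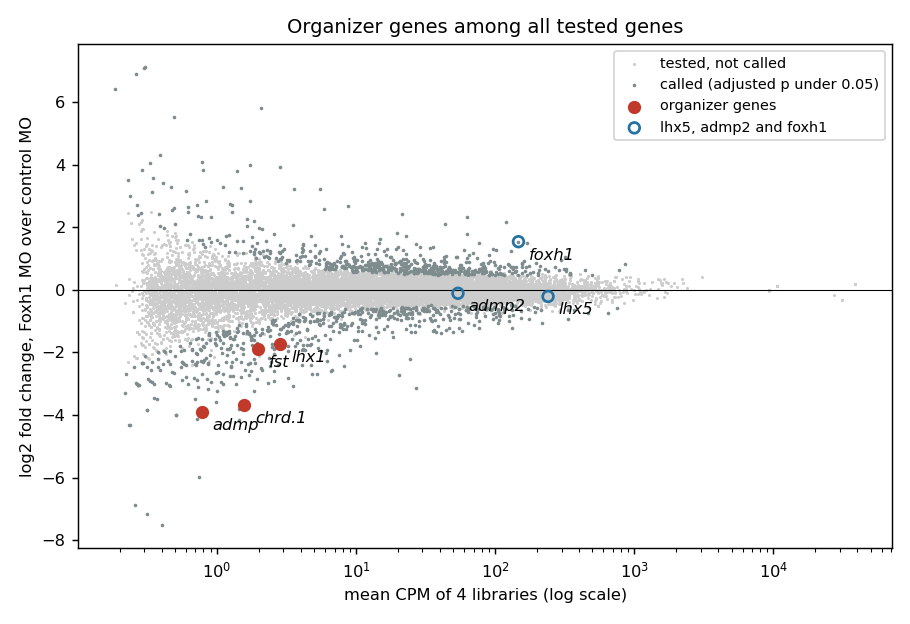
Log2 fold change, Foxh1 MO over control MO (vertical axis), against the mean CPM of the 4 libraries (horizontal axis, log scale) for all 13756 tested genes; red points are the 4 tested organizer genes and open circles lhx5, admp2 and foxh1. The organizer genes sit at low abundance below zero, with admp at -3.92 and chrd.1 at -3.69 beneath fst at -1.88 and lhx1 at -1.73, while lhx5 and admp2 are near zero.

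The 4 tested genes fell into a steep pair, chrd.1 and admp, and a shallower pair, fst and lhx1. Calls of at least 10 times lower made up 0.138% of tested genes, and calls of at least 3 times lower 1.43%. Whether chrd.1 and admp fell by at least 10 times is uncertain. Exact 95% intervals of the summed counts were 7.34 to 25.9 times lower for chrd.1 and 6.47 to 49.5 for admp. These cover counting error only. Without Foxh1 MO 2, chrd.1 was 9.91 times lower. Within each library the ratio of fst to chrd.1 in TPM, which needs no scaling between libraries, was 4.82 and 6.56 in Foxh1 MO libraries, against 1.24 and 2.04 in control MO libraries. The ratio of lhx1 to chrd.1 was 7.18 and 12.6 in Foxh1 MO libraries, against 2.06 and 2.80 in control MO libraries. Both ratios were higher in each Foxh1 MO library than in each control MO library. The pairs were set from the fold changes of these same libraries, so the ratios restate that difference and are no separate evidence for it. The ratios in Foxh1 MO libraries rest on 8 and 4 chrd.1 counts. Within the pairs the groups overlapped: the ratio of admp to chrd.1 was 0.706 and 0.889 in Foxh1 MO libraries and 0.797 and 1.18 in control MO libraries, and that of lhx1 to fst 1.49 and 1.92 in Foxh1 MO libraries and 1.67 and 1.37 in control MO libraries. A two-sided exact permutation test with 2 against 2 libraries cannot give a p below 0.333, the value reached by both ratios to chrd.1 that did not overlap.

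On the length-corrected TPM scale the order of the 6 genes differed between groups. In Foxh1 MO libraries it was lhx1 (1.17 ± 0.0636 TPM), fst (0.705 ± 0.163), nog (0.465 ± 0.403), chrd.1 (0.130 ± 0.0566), admp (0.10 ± 0.0283) and gsc (0.0450 ± 0.0636; SD, n = 2). There, lhx1 stood above fst and nog above chrd.1 in both libraries, while fst overlapped nog, chrd.1 overlapped admp and admp overlapped gsc. In control MO libraries the order was lhx1 (4.01 ± 0.219 TPM), fst (2.67 ± 0.516), chrd.1 (1.68 ± 0.269), admp (1.62 ± 0.191), nog (1.34 ± 0.205) and gsc (1.03 ± 0.488; SD, n = 2). Among the controls lhx1 and fst each stood above the next gene in both libraries, and the 4 genes below fst overlapped or met their neighbours. The order thus changed in the place of nog, whose mean lay below those of chrd.1 and admp in control MO libraries. In both Foxh1 MO libraries nog lay above them, where it rested on 1 and 4 counts. In Foxh1 MO 1 it stood at 0.18 TPM against 0.17 TPM for chrd.1, so this change is weakly founded. The 3 antagonist transcripts chrd.1, nog and fst together summed to 1.17 and 1.43 TPM in Foxh1 MO libraries, against 5.38 and 6.02 TPM in control MO libraries.

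**Figure D3:**
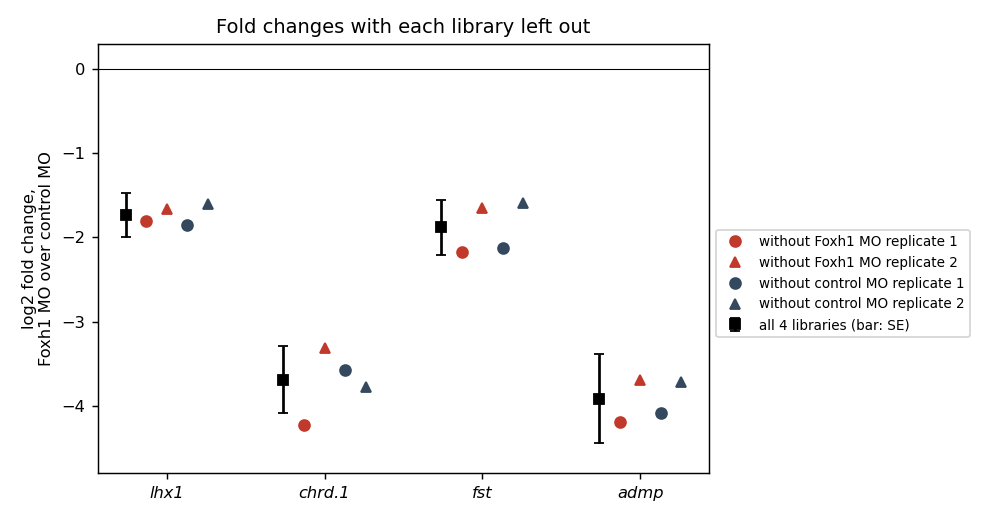
Log2 fold change, Foxh1 MO over control MO (vertical axis), of the 4 tested organizer genes (horizontal axis) with all 4 libraries (black squares, bars SE) and with each library left out (red, a Foxh1 MO library left out; dark blue, a control MO library left out). Values stay between -1.85 and -1.60 for lhx1, -4.23 and -3.31 for chrd.1, -2.17 and -1.59 for fst and -4.19 and -3.69 for admp.

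A relative each of lhx1 and admp, picked outside the naming rule given below, was far more abundant in the caps and did not pass the test. The LIM homeobox gene lhx5, which is expressed in the anterior neural plate, stood at 212 and 241 TPM in Foxh1 MO libraries, against 287 and 252 TPM in control MO libraries (log2 fold change -0.21, edgeR adjusted p = 0.413). Lhx1 amounted to 0.00577 and 0.00468 of the lhx5 level in Foxh1 MO libraries and to 0.0135 and 0.0165 in control MO libraries, so their ratio did not overlap between groups (exact permutation p = 0.333, the smallest possible). The second ADMP gene, admp2, stood at 50.5 and 40.5 TPM in Foxh1 MO libraries, against 51.8 and 49.4 TPM in control MO libraries (log2 fold change -0.11, or 0.06 without Foxh1 MO 2; edgeR adjusted p = 0.753 with all 4 libraries). Admp amounted to 0.00238 and 0.00197 of the admp2 level in Foxh1 MO libraries and to 0.0288 and 0.0357 in control MO libraries, again without overlap (exact permutation p = 0.333). Since lhx5 and admp2 changed little, both ratios restate the falls of lhx1 and admp and are no separate evidence for them. For gsc, the related gene gsc2 was near absent, with 0 and 0 counts in Foxh1 MO libraries and 0 and 1 in control MO libraries, and nog2 was listed at 0 in each library.

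Partners of Lhx1 were measured as well. LIM homeodomain proteins act in complexes with the adaptor Ldb1 and single-stranded DNA binding proteins, and LMO proteins compete for the adaptor. Of 24 LIM homeobox and cofactor genes in the files 15 were tested, of which 1 rose and 1 fell. Over all tested genes 4.17% were called higher and 4.07% lower, so these counts do not stand apart from those shares. Ldb1 stood at 248 ± 0.223 CPM in Foxh1 MO libraries and 262 ± 4.81 CPM in control MO libraries (SD, n = 2), and it was not called. Ssbp3 stood at 254 ± 51.2 CPM in Foxh1 MO libraries and 296 ± 5.17 CPM in control MO libraries and was not called either. The LMO gene lmo4.1 rose to 24.4 ± 0.0643 CPM in Foxh1 MO libraries, against 12.6 ± 0.642 CPM in control MO libraries (log2 fold change 0.95, SE 0.15, edgeR adjusted p = 0.00223). The more abundant copy lmo4.2 was not called, at 46.6 ± 8.31 CPM in Foxh1 MO libraries and 40.2 ± 7.51 CPM in control MO libraries (log2 fold change 0.21). The LIM homeobox gene lhx9 fell to 2 and 3 counts in Foxh1 MO libraries, against 18 and 11 in control MO libraries, and lost its call whichever library was left out (edgeR adjusted p = 0.0461 with all 4, up to 0.303). Of 10 gsc relatives in the files 5 were tested and 2 fell, where 4.07% of all tested genes did. These were otx1 and otx2, homeobox genes of the anterior neural plate. Otx1 stood at 22.6 ± 2.65 CPM in Foxh1 MO libraries and 58.3 ± 7.40 CPM in control MO libraries (SD, n = 2). Otx2 stood at 7.32 ± 1.01 CPM in Foxh1 MO libraries and 13.8 ± 1.18 CPM in control MO libraries. The related genes crx, dmbx1 and pitx1 had log2 fold changes of 0.08, 0.66 and 1.17 and were not called, and crx stood at -0.03 without Foxh1 MO 2. Pitx1 had 47 and 29 counts in Foxh1 MO libraries, against 17 and 20 in control MO libraries.

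Many other genes of the organizer and its anterior endoderm were at or near the limit of detection. Of 34 genes in the list of other organizer genes, 30 were in the files and 16 were tested, of which 7 fell, 1 rose and 8 did not pass (median log2 fold change -0.86, against -0.000186 over all tested genes). Genes called higher made up 4.17% of all tested genes, and genes called lower 4.07%. The list also holds genes that the neural plate expresses, such as otx2, irx3 and hesx1, and mesendoderm genes such as mix1. Its calls therefore do not describe organizer genes alone. The 8 tested genes that did not pass were foxa4, hhex, shh, lefty, pkdcc.1, pkdcc.2, hesx1 and foxd4l1.1. Among the 14 untested genes were the Siamois genes sia1 and sia2, direct activators of gsc in the dorsal lip, which had 0 or 1 count in each library. The Cerberus gene cer1, a marker of anterior endoderm, had 6 and 2 counts in Foxh1 MO libraries and 1 and 0 in control MO libraries. The Nodal ligand genes nodal1, nodal2 and nodal6 were listed at 0 in each library, and nodal itself had 2 and 7 counts in Foxh1 MO libraries and 4 and 3 in control MO libraries. The floor plate and notochord gene foxa4 had 13 and 11 counts in Foxh1 MO libraries and 28 and 31 in control MO libraries, which did not pass (log2 fold change -1.14, edgeR adjusted p = 0.119).

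Of the 7 in that list that fell, the homeobox gene mix1, a Nodal target of mesendoderm, had the lowest log2 fold change. Mix1 had 15 and 18 counts in Foxh1 MO libraries, against 119 and 97 in control MO libraries (log2 fold change -2.55, SE 0.31, edgeR adjusted p = 0.000479). The T-box gene tbx1 fell to 2.64 ± 1.38 CPM in Foxh1 MO libraries, against 8.01 ± 0.530 CPM in control MO libraries (log2 fold change -1.60, with -2.26 without Foxh1 MO 1 and -1.15 without Foxh1 MO 2). The secreted Wnt antagonist gene sfrp2 fell to 33.2 ± 7.57 CPM in Foxh1 MO libraries, against 82.0 ± 11.1 CPM in control MO libraries (SD, n = 2). The other 4 were otx2, given above, irx3 (log2 fold change -1.40), foxd4l1.2 (-1.39) and eomes (-0.96). The notochord homeobox gene not went the other way, with 95.4 ± 23.1 CPM in Foxh1 MO libraries and 60.5 ± 0.279 CPM in control MO libraries (log2 fold change 0.66, edgeR adjusted p = 0.0298). The 2 most abundant genes that did not pass, foxd4l1.1 and the kinase gene pkdcc.1, had log2 fold changes of -0.42 and -0.46. Reads of foxd4l1.1 and foxd4l1.2 may be split uncertainly between these related copies. Calls of not, eomes and foxd4l1.2 ended without 3, 2 and 4 of the single libraries in turn (edgeR adjusted p up to 0.0734, 0.0868 and 0.217), and without control MO 2 or Foxh1 MO 2 the list held 5 genes called lower.

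**Figure D4:**
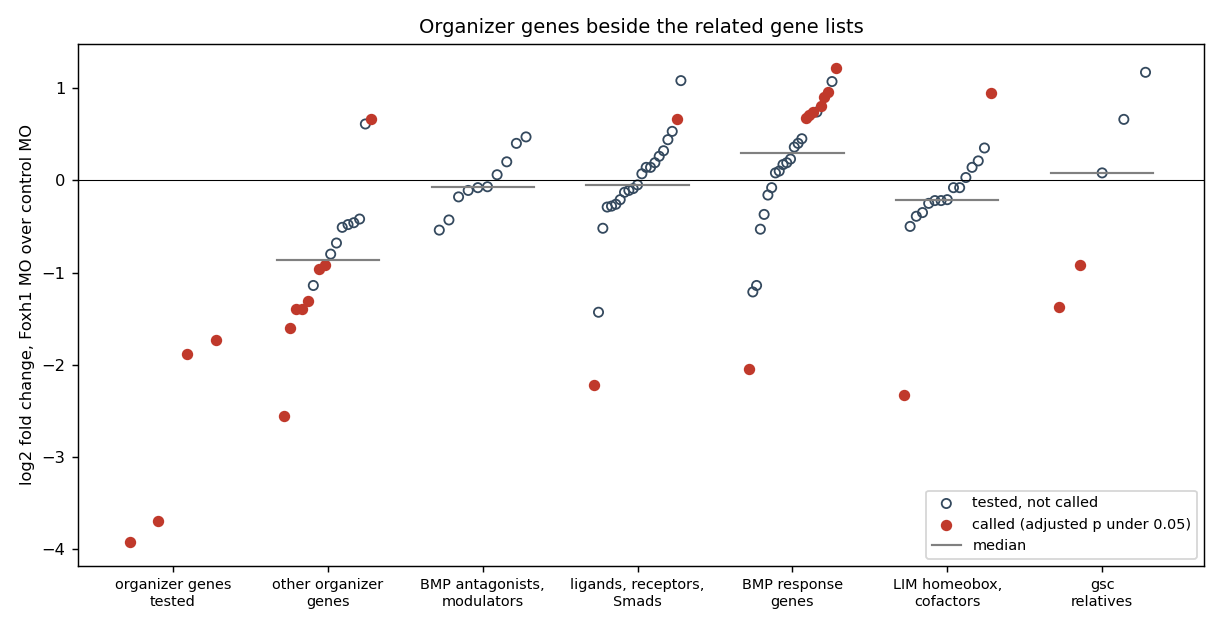
Log2 fold change, Foxh1 MO over control MO (vertical axis), of the 4 tested organizer genes and of tested genes in 6 related lists (horizontal axis); filled red points passed the edgeR test, open points did not, and grey lines are list medians. The organizer genes range from -3.92 to -1.73. The list of other organizer genes, which also holds neural plate and mesendoderm genes, has a median of -0.86. Of the 10 tested BMP antagonist or modulator genes 0 are called, where 4.07% of all tested genes are called lower and 4.17% higher.

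Other extracellular regulators of BMP were called in no case where they could be tested. Of 25 such genes in the files 10 were tested, and edgeR, DESeq2 and limma-voom each called 0 of them. EdgeR called 4.07% of all tested genes lower and 4.17% higher, so 0 of 10 lies near those shares. By edgeR 1 (bambi) had an unadjusted p under 0.05. The other 15 fell below the filter, and their counts went both ways. Fstl5 had 0 and 3 counts in Foxh1 MO libraries, against 9 and 13 in control MO libraries, and grem1 0 and 3 against 7 and 5. Cer1 had 6 and 2 against 1 and 0. The decoy receptor gene bambi stood at 148 ± 23.6 CPM in Foxh1 MO libraries and 112 ± 18.2 CPM in control MO libraries (SD, n = 2; log2 fold change 0.40, edgeR adjusted p = 0.162). The tolloid-family protease gene bmp1, whose class of enzyme cuts chordin, stood at 101 ± 3.34 CPM in Foxh1 MO libraries and 106 ± 10.2 CPM in control MO libraries (log2 fold change -0.07, edgeR adjusted p = 0.850), and its value was 0.04 without control MO 2. Sizzled, encoded by szl, inhibits that protease; it stood at 56.1 and 67.9 TPM in Foxh1 MO libraries, against 67.6 and 66.8 TPM in control MO libraries (log2 fold change -0.08, or 0.04 without Foxh1 MO 1). Twisted gastrulation, encoded by twsg1, binds both chordin and BMP; it stood at 82.2 and 92.8 TPM in Foxh1 MO libraries, against 88.6 and 68.8 TPM in control MO libraries (log2 fold change 0.20). Szl, twsg1, fstl5 and grem1 are named after their values were seen, and neither szl nor twsg1 was called. Without Foxh1 MO 1 the list had 1 gene called higher and 1 lower.

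Genes that carry BMP and activin signals summed to 1280 and 1270 TPM in Foxh1 MO libraries, against 1410 and 1280 TPM in control MO libraries. Of these 25 ligand, receptor and Smad genes in the files 21 were tested, of which 1 rose and 1 fell. That is near the shares over all tested genes, 4.17% higher and 4.07% lower. The Vg1-class ligand gene gdf3 fell to 0.652 ± 0.251 CPM in Foxh1 MO libraries, against 3.03 ± 0.261 CPM in control MO libraries (SD, n = 2; log2 fold change -2.22, SE 0.34, edgeR adjusted p = 0.00194). Smad2, the transducer that binds Foxh1, rose to 93.2 ± 9.93 CPM in Foxh1 MO libraries, against 59.0 ± 2.95 CPM in control MO libraries, and lost its call without control MO 1 (adjusted p = 0.0933 by edgeR, against 0.0137 with all 4). The BMP transducer gene smad1 and the ligand gene bmp7.2 had log2 fold changes of -0.09 and -0.26 and were not called.

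Of 25 genes that respond to BMP in early ectoderm and ventral tissue 24 were tested, of which 7 rose, 1 fell and 16 did not pass (median log2 fold change 0.29). The shares over all tested genes were 4.17% called higher and 4.07% called lower. Dlx3, foxi1 and tfap2a are the same genes already counted among the ectoderm markers that rose. The list was chosen with earlier results of these libraries known, so its counts are a description only. Dlx3, a homeobox gene of non-neural ectoderm, rose to 13.1 ± 2.53 CPM in Foxh1 MO libraries, against 5.66 ± 1.55 CPM in control MO libraries (SD, n = 2; log2 fold change 1.22, SE 0.22, edgeR adjusted p = 0.00484). Log2 fold changes of the other 6 that rose were 0.96 for msx1, 0.90 for foxi1, 0.81 for ventx1.2, 0.74 for ventx1.1, 0.71 for gata2 and 0.68 for tfap2a. The T-box gene tbx2 fell to 12 and 3 counts in Foxh1 MO libraries, against 37 and 32 in control MO libraries. Its log2 fold change was -2.04 (edgeR adjusted p = 0.0302). It was -3.30 without Foxh1 MO 1, and -1.39 without Foxh1 MO 2, where the call ended (edgeR adjusted p = 0.208). The most abundant genes that did not pass, id3 and ventx2.2, had log2 fold changes of 0.17 and 0.36. Reads of ventx1.1 and ventx1.2 may be split uncertainly between these neighbouring copies. Without control MO 1, 3 genes of this list were called higher and 2 lower, and ventx1.1, gata2, tfap2a and foxi1 were no longer called (edgeR adjusted p up to 0.152).

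Markers of mesoderm and endoderm, which an animal cap can carry if cut too wide, were scarce, and their sums were lower in both Foxh1 MO libraries. The 15 mesoderm markers summed to 22.5 and 24.1 TPM in Foxh1 MO libraries, against 24.2 and 30.9 TPM in control MO libraries. The 10 endoderm markers summed to 16.8 and 18.8 TPM in Foxh1 MO libraries, against 20.6 and 26.6 TPM in control MO libraries. The mean of these sums was 15.5% and 24.7% lower in Foxh1 MO libraries, where the summed TPM of the 6 organizer genes was 78.8% lower (2.60 and 2.64 TPM in Foxh1 MO libraries, 12.1 and 12.6 TPM in control MO libraries). The 6 genes were picked with earlier results known, so the percentages are not like measures. The marker sums also leave out genes counted in other lists, such as mix1, gdf3 and eomes, which fell, and not, which rose. Cdx4 was the most abundant mesoderm marker over the 4 libraries and rose, so leaving it out could only make the fall larger. Without it the mesoderm sum was 14.9 and 15.8 TPM in Foxh1 MO libraries, against 21.0 and 25.9 TPM in control MO libraries. Its mean was then 34.6% lower in Foxh1 MO libraries. Without gata6, the most abundant endoderm marker over the 4 libraries, the endoderm sum was 11.1 and 12.3 TPM in Foxh1 MO libraries. In control MO libraries it was 12.8 and 17.5 TPM, and the mean was then 22.7% lower in Foxh1 MO libraries. The endoderm sum was not recomputed without darmin, which rose (log2 fold change 3.29), so the 24.7% includes that rise. The paraxial mesoderm gene msgn1 was listed at 0 in each library, and the pan-mesodermal gene tbxt (brachyury) had 109 and 139 counts in Foxh1 MO libraries and 89 and 139 in control MO libraries. Of 8 mesoderm markers tested 1 rose and 2 fell, and of 8 endoderm markers 1 rose and 1 fell. Over all tested genes 4.17% rose and 4.07% fell, and with 8 genes per list these counts are a description only. The most abundant mesoderm markers over the 4 libraries were cdx4, tbxt, fgf8 and foxc2, with log2 fold changes of 0.98, 0.26, -0.36 and -1.33, and the most abundant endoderm markers gata6, sox17b.1, darmin and sox17b.2, with -0.44, -1.05, 3.29 and -0.93. Of these, cdx4 and darmin rose and foxc2 and sox17b.1 fell. Without Foxh1 MO 2 the calls of cdx4, foxc2 and sox17b.1 ended (edgeR adjusted p up to 0.0812), as did that of cdx4 without control MO 1 (0.116) and that of sox17b.1 without Foxh1 MO 1. Without Foxh1 MO 1, 3 mesoderm markers were called lower, and without control MO 1, 3 endoderm markers. The part that such cells have in the level of the organizer genes was not tested.

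The tested genes whose profile over the 4 libraries lay nearest to each organizer gene were found by the Euclidean distance between log2 CPM values centred on each gene's mean. The organizer genes themselves and genes named only by a LOC number were left out of the search and of the medians. Nearest to chrd.1 were the adenosine receptor gene adora2a and the adhesion gene kirrel2 (distance 0.46 each), then the transcription factor gene onecut1 (0.51), where the median over the searched genes was 3.45. Nearest to admp were kirrel2 (0.24), adora2a (0.28) and fndc10 (0.29, median over the searched genes 3.26). Chrd.1 and admp were themselves 0.52 apart. Adora2a had 2 and 1 counts in Foxh1 MO libraries, against 29 and 28 in control MO libraries, and onecut1 had 3 and 1 counts in Foxh1 MO libraries, against 35 and 46 in control MO libraries. Nearest to fst were the homeobox gene gbx2.1 (0.17), the transcription factor gene tfec (0.17) and the potassium channel gene kcnc4 (0.18, median over the searched genes 1.90), of which gbx2.1 was not called. Nearest to lhx1 were crmp1 (0.10), tmem45a (0.13) and the junctophilin gene jph3 (0.13, median over the searched genes 1.72). With 4 libraries in 2 groups, nearness reflects mainly a similar difference between groups.

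The authors' deposited table of their own edgeR comparison lists 4 of the 6 organizer genes. It gives log2 fold changes of -3.70 for chrd.1, -3.91 for admp, -1.87 for fst and -1.73 for lhx1. The false discovery rates in the authors' deposited table are 2.89e-14, 1.96e-08, 5.96e-06 and 1.17e-06 for the same genes, and 5.02% of its 13758 genes are lower at a rate under 0.05. Those rates describe the same libraries and are no independent evidence. They lie below the edgeR adjusted p given above, such as 0.000232 for chrd.1. With the replicate number as a block, edgeR gave adjusted p of 6.3e-14, 1.74e-08, 8.62e-06 and 1.85e-06 in the same gene order. Which model the authors used is not given in the sources used here.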

How the data were processed

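Poly(A) RNA was sequenced from 2 Foxh1 MO and 2 control MO libraries. Per the labels' protocols RNA was extracted with Trizol and libraries were made with a NEBNext Ultra II kit. The submitters' processing notes name R 4.1.2, edgeR 3.36.0, RSEM 1.3.3 and STAR 2.7.3a. For the strand setting and the genome build, the answer is not given in the sources used here. Per the file headers the authors deposited an expected count, a TPM, an FPKM and a length per gene; FPKM was not analysed. The authors' deposited comparison table holds a log2 fold change and log2 CPM, an F statistic (a score), and a false discovery rate beside its p-value; its negative values are lower in Foxh1 MO, checked against the libraries (13641 of 13753 shared genes had the same sign).

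Rounded expected counts went into edgeR 4.0.16 (R 4.3.3): filterByExpr by group (minimum count 10, minimum total count 15), TMM factors (0.954 to 1.06), quasi-likelihood F test, two-sided, no covariate, 2 residual and 10.5 prior degrees of freedom, Benjamini-Hochberg over 13756 genes, threshold 0.05. The script was tested on simulated data. SE is the absolute log2 fold change divided by the square root of F. A prior count of 2 was used for centred log2 CPM. Intervals are exact at 95% (Poisson for a count, conditional binomial for a ratio of summed counts) and cover counting error. The members and gene lists were chosen with earlier results of these data known. Named genes were the members, the called genes and the 2 most abundant uncalled genes of each list, the 4 most abundant markers per tissue, and the 3 nearest genes per tested member. Nearest genes were sought among tested non-members with a symbol other than a LOC number. Szl, twsg1, fstl5, grem1 and the neighbouring genes were named afterwards. Lhx5, lmo4.2, admp2, gsc2, pitx1, nog2, sia1, sia2, cer1, foxa4 and the nodal genes were picked outside this rule. Gene order came from the RefSeq table of UCB_Xtro_10.0, which matched 26531 of 28850 symbols. No sequence was used here, so promoter motifs were not searched. DESeq2 1.42.0, limma 3.58.1, other filters and factors, a replicate block and each library left out were alternatives. Same-numbered libraries did not deviate together (correlation -0.0821).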

Additional observations from a re-analysis of the deposited data

How the results depend on the processing

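Lhx1, chrd.1, fst and admp kept their direction and their call in 11 alternatives on the count scale (DESeq2, upper-quartile factors, limma-voom, no filter or one at 1 CPM in 2 libraries, unrounded counts, the replicate block and each library left out). Their log2 fold changes then ranged from -1.85 to -1.60, -4.23 to -3.31, -2.17 to -1.59 and -4.19 to -3.69, with largest adjusted p of 0.00674, 0.000727, 0.0246 and 0.00487. Limma-trend on log2(TPM + 1) also called all 4, with smaller values that reflect the added 1 (-1.20, -1.24, -1.10 and -1.25), as it did with 0.1 added. Gsc was also called without the filter, which made 5 organizer genes called lower in place of 4. With single libraries left out the filter was applied anew, and gsc passed it only through control MO 1 (16 counts). Its log2 fold change was then -6.53 without Foxh1 MO 1, -3.31 without Foxh1 MO 2 and -4.49 without control MO 2. Without control MO 1 gsc fell below the filter and was not tested. Leaving out single libraries gave gsc a ratio of Foxh1 MO to control MO in summed, scaled counts of 0.0364 to 0.0909, and nog one of 0.136 to 0.564; without Foxh1 MO 1 gsc has 0 counts and gives no ratio. For all genes, 574 were called higher and 560 lower. At thresholds of 0.01 and 0.1 these were 210 and 874 higher, with 220 lower at 0.01. No filter gave 862 lower, log2(TPM + 0.1) 872 lower, and single libraries left out 388 to 853 higher and 337 to 1493 lower. With the replicate number as a block, 546 were higher and 699 lower and no organizer gene changed its call; the labels do not say what the number marks. Values that changed sign were small and not called: with single libraries left out bmp1 ranged from -0.16 to 0.04 (positive without control MO 2), crx from -0.03 to 0.18 and epcam from -0.01 to 0.07 (both negative without Foxh1 MO 2), tbxt from -0.09 to 0.70 (negative without control MO 1), admp2 from -0.30 to 0.06 (positive without Foxh1 MO 2) and szl from -0.21 to 0.04 (positive without Foxh1 MO 1). Epcam was also at -0.01 by TPM. With 0 to 47 counts per library behind gsc, nog and admp, counting error alone leaves their folds wide.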

Other observations

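The genes on either side of each organizer gene were looked up in the RefSeq gene order of UCB_Xtro_10.0 after the values above were seen. None of the 8 that were tested was called lower, where 4.07% of all tested genes were, so the 8 do not stand apart from that share. Next to admp lies pnhd, which encodes the secreted protein Pinhead, and it moved in the opposite direction. Pnhd had 45 and 36 counts in Foxh1 MO libraries, against 10 and 19 in control MO libraries (log2 fold change 1.61, SE 0.42, edgeR adjusted p = 0.0348). The TPM ratio of admp to pnhd was 0.0795 and 0.0620 in Foxh1 MO libraries, against 4.66 and 2.89 in control MO libraries, so the more abundant of the neighbours differed between groups in each library (exact permutation p = 0.333, the smallest possible with 2 against 2). That ratio restates the opposite changes of the neighbours, already seen, and is no separate evidence. The call of pnhd ended without Foxh1 MO 1, Foxh1 MO 2 or control MO 1 (edgeR adjusted p up to 0.151). Its log2 fold change stayed between 1.16 and 2.22 with each library left out.

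The chloride channel gene clcn2 beside chrd.1 had a log2 fold change of -0.13, ndufs4 beside fst 0.03, and aatf beside lhx1 0.10. Dicer1 and serpina1, on either side of gsc, had -0.05 and 0.22. None of these 5 was called by edgeR, with adjusted p of 0.721, 0.967, 0.747, 0.889 and 0.688, and with single libraries left out ndufs4 ranged from -0.23 to 0.25 and dicer1 from -0.16 to 0.07. The other neighbour of chrd.1, thpo, was listed at 0 in each library.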
